A study of Mus musculus with 12 samples.

Results

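The genes described here are 8 genes of the cytotoxic granule, the secretory lysosome with which killer lymphocytes destroy target cells. They were taken by symbol from the GENCODE M21 annotation, and all 8 were among the 52636 gene identifiers of the deposited count table. The list comprises the serine proteases granzyme A (Gzma), granzyme B (Gzmb) and granzyme K (Gzmk), the pore-forming protein perforin (Prf1), the granule membrane protein Nkg7, the proteoglycan core protein serglycin (Srgn), the granzyme B inhibitor Serpinb9 and cathepsin C (Ctsc). Granzymes are made as inactive precursors, and cathepsin C, also called dipeptidyl peptidase I, removes an amino-terminal dipeptide to activate them. They are stored bound to serglycin, and perforin lets them into the cytosol of a target cell, where granzyme B cleaves Bid and other proteins of cell death. Serpinb9 is the mouse relative of human PI-9 and protects lymphocytes, dendritic cells and some other cells from granzyme B. Srgn and Ctsc are also made by myeloid cells, whereas granzymes, perforin and Nkg7 come mainly from T cells and natural killer (NK) cells.

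The study measured bulk RNA from tumors and livers of female FVB/NJ mice, a wild-type strain, that all carried a mammary tumor. The tumor, Fo5, grew from pieces of an MMTV-HER2-transgenic founder line placed in the mammary fat pad, so that human HER2 is driven in mammary epithelium by a viral promoter and the recipient is immune competent. Mice with tumors of about 350 to 500 mm3 on average received 1 intravenous dose of 5 mg/kg of anti-HER2(4D5-2C11)/CD3, a T cell dependent bispecific antibody (TDB) that binds HER2 with one arm and CD3 of T cells with the other, or the same volume of its buffer (vehicle), and organs were taken after 24 h. The 4 groups of 3 libraries each were TDB tumors, vehicle tumors, TDB livers and vehicle livers. The series text gives 3 mice per treatment, but the labels do not say which tumor and which liver library came from the same mouse, so tumor and liver libraries were compared unpaired. The age of the mice is not given in the sources used here.

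Library totals ran from 20796764 to 29396324 counts in tumor and from 18460159 to 25542980 counts in liver. The tissues carried their defining transcripts: Csn3, a casein of mammary epithelium, took 1.83 to 2.21% of tumor counts, and Alb, the hepatocyte product albumin, took 7.96 to 14.3% of liver counts. TDB liver library 3 had 2.05% mitochondrial counts, against 0.612 to 1.28% in the other 11 libraries. The common biological coefficient of variation was 13% among tumors and 32.3% among livers. Levels below are CPM, a gene's share of the library's counts on a fixed scale, adjusted by the trimmed mean of M values (TMM) over the 12 libraries. Differences are log2 fold changes from edgeR's quasi-likelihood F test with Benjamini-Hochberg adjustment over all genes tested, called at an adjusted p under 0.05. In bulk tissue, fewer cells of a type and less RNA per cell cannot be told apart.

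In GRCm38 Gzma (ENSMUSG00000023132, chr13:113093825-113100981) and Gzmk (ENSMUSG00000042385, chr13:113171608-113225908) lie on the minus strand. Gzmb (ENSMUSG00000015437, chr14:56258838-56262260) also lies on the minus strand, and Serpinb9 (ENSMUSG00000045827, chr13:33003250-33017957) on the plus strand. Prf1 (ENSMUSG00000037202, chr10:61297833-61304680) is on the plus strand and Srgn (ENSMUSG00000020077, chr10:62493833-62527451) on the minus strand of the same chromosome. Nkg7 (ENSMUSG00000004612, chr7:43437073-43438249) and Ctsc (ENSMUSG00000030560, chr7:88278085-88310888) are on the plus strand.

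The promoters of Gzmb, Prf1, Gzma and Serpinb9 are shown because these genes changed together in tumor and carry the protease, the pore and the inhibitor of the pathway. Each window holds the 250 bases before and the 50 bases after the start site, 5′ to 3′ on the gene's strand, from RefSeq (GRCm38.p6), with matches to 5 searched motifs in capitals. The windows are chr14:56262285-56262584 on the minus strand for Gzmb, chr10:61297586-61297885 on the plus strand for Prf1, chr13:113100932-113101231 on the minus strand for Gzma and chr13:33004291-33004590 on the plus strand for Serpinb9.
Gzmb: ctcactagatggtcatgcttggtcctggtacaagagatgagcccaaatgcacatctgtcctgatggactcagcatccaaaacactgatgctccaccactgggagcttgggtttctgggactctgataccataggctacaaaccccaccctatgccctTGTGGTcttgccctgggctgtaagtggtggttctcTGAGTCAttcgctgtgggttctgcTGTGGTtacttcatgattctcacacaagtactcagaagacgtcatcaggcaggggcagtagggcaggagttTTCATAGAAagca
Prf1: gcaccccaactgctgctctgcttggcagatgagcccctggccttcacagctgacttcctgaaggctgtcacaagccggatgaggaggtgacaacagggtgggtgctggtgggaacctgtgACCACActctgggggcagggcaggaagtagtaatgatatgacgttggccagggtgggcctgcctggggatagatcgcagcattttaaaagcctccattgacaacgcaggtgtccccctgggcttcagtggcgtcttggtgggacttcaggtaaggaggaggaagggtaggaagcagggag
Gzma: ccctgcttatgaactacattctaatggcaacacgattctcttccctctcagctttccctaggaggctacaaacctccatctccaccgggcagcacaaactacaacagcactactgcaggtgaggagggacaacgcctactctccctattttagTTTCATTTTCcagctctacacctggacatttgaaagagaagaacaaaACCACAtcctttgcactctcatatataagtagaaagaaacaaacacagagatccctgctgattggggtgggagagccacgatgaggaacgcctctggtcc
Serpinb9: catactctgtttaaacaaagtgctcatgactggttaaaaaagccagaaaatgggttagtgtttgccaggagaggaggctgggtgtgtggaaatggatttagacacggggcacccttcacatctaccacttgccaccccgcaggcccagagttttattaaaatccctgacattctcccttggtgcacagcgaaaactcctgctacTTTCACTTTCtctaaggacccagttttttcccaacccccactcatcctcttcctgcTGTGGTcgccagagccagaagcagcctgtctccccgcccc

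The motifs were searched on both strands, and no match overlapped another. TGTGGT, the core bound by RUNX factors, was present in all 4 windows, at -93 and -34 in Gzmb, -130 in Prf1, -50 in Gzma and 11 in Serpinb9, and in 16.8% of all 32851 RefSeq promoter windows of the same length. Among the members not shown it lies at -83 in Nkg7 and -202 in window 2 of Srgn. It was absent from Gzmk, Ctsc and window 1 of Srgn. TGANTCA, the AP-1 element, was present at -58 in Gzmb and in 7.81% of windows. The pattern GAAA, any 2 bases, GAAA, a core of interferon-stimulated elements bound by IRF factors, was present at -97 in Gzma and -46 in Serpinb9 and in 3.44% of windows. It also lies at -220 in window 2 of Srgn. TTCNNNGAA, the STAT element, was present at 38 in Gzmb and in 8.3% of windows, and it also lies at -220 in Nkg7 and -236 in Ctsc. GGTGTGA, a T-box element, was in none of the 4 and in 3.98% of windows, although it lies at -75 in Gzmk, -13 in Nkg7 and, on the other strand, -117 in Ctsc. These are matches of letters and do not show binding.

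In TDB tumors all 7 granule genes with counts were higher than in vehicle tumors, and in livers none of the 7 passed the threshold. The 4 cytolytic effectors, granzyme B, granzyme A, perforin and Nkg7, had group means of 3.81 to 23.2 CPM in TDB tumors, against 0.0201 to 0.282 CPM in vehicle tumors, on 2 to 28 counts per gene over the vehicle group. Serglycin and Serpinb9 rose by 2.57 and 2.26 on the log2 scale in tumor, and cathepsin C rose least, by 0.93. Gzmk was listed at 0 counts in all 12 libraries and was not tested. Its annotated span overlaps Esm1 on the other strand. In tumor 28.8% of the 15454 genes tested were called, 15.8% higher and 13.1% lower, and 17.7% had all 3 TDB values above all 3 vehicle values, as all 7 granule genes did. With upper quartile scaling the same test called 2075 genes higher and 2991 lower, and it still called all 7 granule genes higher. Gzma, Prf1 and Nkg7 reached the filter on low counts in no vehicle tumor, so they were tested only because of their TDB tumors, and 243 of the 257 tested genes of that kind were called higher. The count of members is therefore partly fixed by the filter. Gzmb, Srgn, Serpinb9 and Ctsc reached it in at least 1 vehicle tumor, and of the 15197 tested genes that did, 14.4% were called higher. The filter asks for 3 libraries, however, and Gzmb, with 11, 6 and 11 counts, did not reach it in every vehicle tumor. Its TDB tumors therefore also carried Gzmb past the filter, and the 14.4% includes any such genes. In liver 0.535% of 13657 genes were called, 0.513% higher and 0.022% lower.

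**Figure D1:**
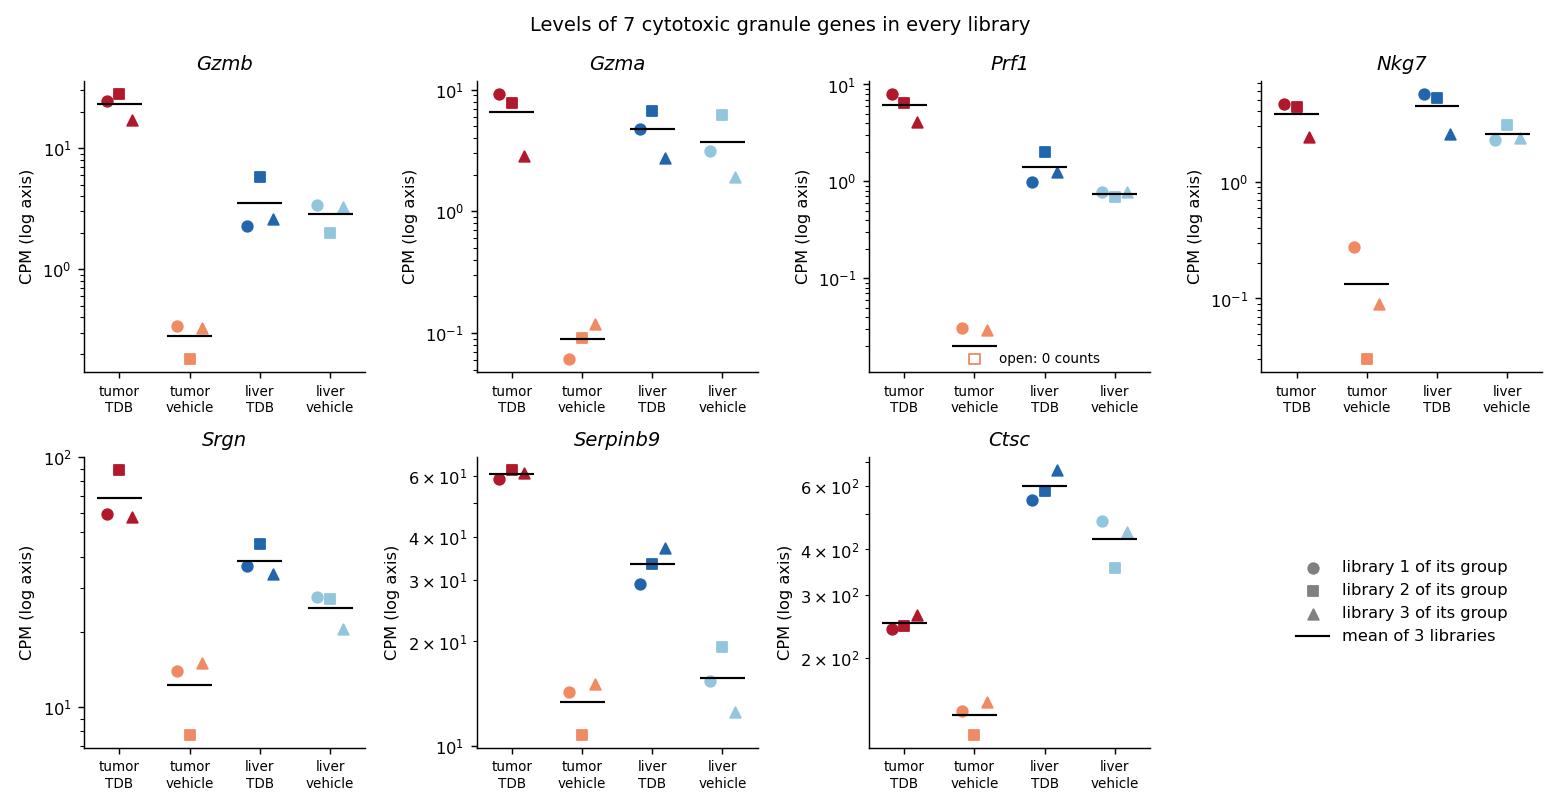
CPM of the 7 granule genes with counts in each of the 12 libraries (log axis), by group, with a bar at the mean of 3 libraries and an open symbol for a library with 0 counts. For every gene of the 7 the 3 TDB tumors lie above the 3 vehicle tumors, and for Gzma, Gzmb and Nkg7 the TDB livers overlap the vehicle livers.

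Granzyme B, the protease that cleaves Bid, was the most abundant granzyme transcript in TDB tumors. Gzmb had 24.6, 27.9 and 17.1 CPM in TDB tumors, against 0.338, 0.182 and 0.326 CPM in vehicle tumors. The groups did not overlap, and the counts behind them were 824, 1217 and 556 in TDB tumors and 11, 6 and 11 in vehicle tumors. The log2 fold change was 6.43 (SE 0.27, adjusted p = 1.6e-06, edgeR). In livers Gzmb had 2.29, 5.76 and 2.62 CPM with TDB and 3.38, 1.98 and 3.24 CPM with vehicle. These groups overlapped, TDB liver library 2 being the highest of the 6, and the log2 fold change was 0.36 (SE 0.44, adjusted p = 0.85). Without that library it was -0.21.

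Granzyme A, a tryptase-like granzyme that cleaves other substrates than granzyme B, followed in tumor but varied more between mice. Gzma had 9.18, 7.84 and 2.83 CPM in TDB tumors, against 0.0615, 0.0911 and 0.118 CPM in vehicle tumors, where only 9 counts were found in all. The log2 fold change was 6.22 (SE 0.62, adjusted p = 0.00044), and every TDB tumor was above every vehicle tumor. The TDB tumors themselves spread 3.25-fold for Gzma, against 1.63-fold for Gzmb. In livers Gzma had 4.77, 6.73 and 2.75 CPM with TDB and 3.12, 6.19 and 1.93 CPM with vehicle, overlapping ranges with a log2 change of 0.38 (SE 0.50, adjusted p = 0.86).

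Perforin, the pore through which granzymes enter a target, had the fewest counts in vehicle tumors. Prf1 had 266, 284 and 134 counts in TDB tumors (7.93, 6.51 and 4.12 CPM), against 1, 0 and 1 counts in vehicle tumors. The depth-scaled ratio of the summed counts was 299, with a 95% exact binomial interval of 82.4 to 2470 that covers counting error only. The fitted log2 fold change of 8.10 (SE 0.49, adjusted p = 6.9e-06) rests on those 2 vehicle counts and is no bound. In livers Prf1 had 0.98, 1.99 and 1.25 CPM with TDB, each above the 0.781, 0.688 and 0.772 CPM with vehicle. Its liver log2 fold change of 0.95 (SE 0.42) had an adjusted p of 0.63.

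Nkg7, a membrane protein of cytotoxic granules that is needed for their efficient release, had 4.65, 4.40 and 2.40 CPM in TDB tumors, against 0.277, 0.0304 and 0.0889 CPM in vehicle tumors. The log2 fold change was 4.91 (SE 0.52, adjusted p = 0.00033), without overlap, on 426 counts in TDB tumors and 13 in vehicle tumors. In livers Nkg7 had 5.62, 5.24 and 2.56 CPM with TDB and 2.26, 3.09 and 2.39 CPM with vehicle. TDB liver library 3 fell inside the vehicle range, and the log2 fold change of 0.83 (SE 0.37) had an adjusted p of 0.65. TDB tumor library 3 was the lowest of its group for Gzmb, Gzma, Prf1, Nkg7 and Srgn.

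Serglycin, whose sugar chains hold granzymes and perforin in the granule, had 59.1, 88.9 and 57.7 CPM in TDB tumors, against 13.9, 7.77 and 15.0 CPM in vehicle tumors. The log2 fold change of Srgn was 2.57 (SE 0.30, adjusted p = 0.0019). In livers it had 36.6, 44.9 and 34.1 CPM with TDB, all above the 27.6, 27.0 and 20.5 CPM with vehicle, with a log2 change of 0.66 (SE 0.23, adjusted p = 0.44). Monocyte and macrophage markers, from cells that also make serglycin and cathepsin C, summed to 871 to 1080 CPM in TDB tumors and 286 to 357 CPM in vehicle tumors. In livers they summed to 465 to 511 CPM with TDB and 391 to 480 CPM with vehicle. Of the 10 markers, 6 were called higher in tumor, led by Ccr2, a receptor of inflammatory monocytes (log2 fold change 2.96), Fcgr1, an Fc receptor (2.50), Cd14, a co-receptor for bacterial lipopolysaccharide (2.49), and Itgam, an integrin chain (2.17). Over all genes tested in tumor 15.8% were called higher. In liver 0 of the 9 tested were called by edgeR, with 3 at an unadjusted p under 0.05. No marker of the list was at 0 in any group, and the part of these cells in the Srgn and Ctsc values was not tested.

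Cathepsin C, the activating peptidase, had the highest level per exon length of the 7 in all 4 groups and was the only one with a lower level in TDB tumors than in TDB livers past the threshold. Ctsc had 241, 245 and 263 CPM in TDB tumors, against 143, 123 and 151 CPM in vehicle tumors, a log2 change of 0.93 (SE 0.09, adjusted p = 0.00014). In livers it had 550, 581 and 664 CPM with TDB and 480, 356 and 446 CPM with vehicle. The liver groups did not overlap, and the log2 fold change of 0.53 (SE 0.20) had an adjusted p of 0.51.

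Serpinb9, which inactivates granzyme B, varied least between the TDB tumors, its highest library being 1.06 times its lowest. It had 58.6, 62.3 and 60.9 CPM in TDB tumors, against 14.3, 10.8 and 15.1 CPM in vehicle tumors, a log2 change of 2.26 (SE 0.12, adjusted p = 3e-06). In livers it had 29.3, 33.5 and 37.2 CPM with TDB, all above the 15.4, 19.3 and 12.5 CPM with vehicle. The liver log2 fold change of 1.13 (SE 0.25) was the largest of the 7 and had an adjusted p of 0.16 in edgeR. DESeq2 gave it an adjusted p of 0.0049 and a single edgeR fit over the 12 libraries 0.013, so whether Serpinb9 counts as called in liver depends on the test. In liver 4 of the 7 genes, Prf1, Srgn, Serpinb9 and Ctsc, had all 3 TDB values above all 3 vehicle values, where 8.18% of genes tested did so. By edgeR 3 of the 7 had an unadjusted p under 0.05, and limma-voom called 0 of the 7.

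The antibody's effect in tumor was larger than its effect in liver for 5 of the 7 genes, by the test of the difference itself, where 2.49% of 16557 genes were called and 1.83% in that direction. On the log2 scale the tumor effect exceeded the liver effect by 7.02 for Prf1 (SE 0.73, adjusted p = 0.00041), 6.02 for Gzmb (SE 0.57, adjusted p = 0.00019) and 5.76 for Gzma (SE 0.86, adjusted p = 0.0041). The difference was 4.02 for Nkg7 (SE 0.70, adjusted p = 0.0095) and 1.86 for Srgn (SE 0.37, adjusted p = 0.020). For Srgn it missed the threshold without vehicle liver library 1 (adjusted p = 0.065) or without TDB tumor library 2 (0.063). Serpinb9, at 1.09 (SE 0.27, adjusted p = 0.061), and Ctsc, at 0.36 (SE 0.23, adjusted p = 0.65), were not called, which does not show that their effects were alike in both tissues. Serpinb9 was called by DESeq2 (adjusted p = 0.00058), by limma-voom (0.042), with median-of-ratios scaling (0.040), and without TDB liver library 3 (0.013) or vehicle liver library 3 (0.040).

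**Figure D2:**
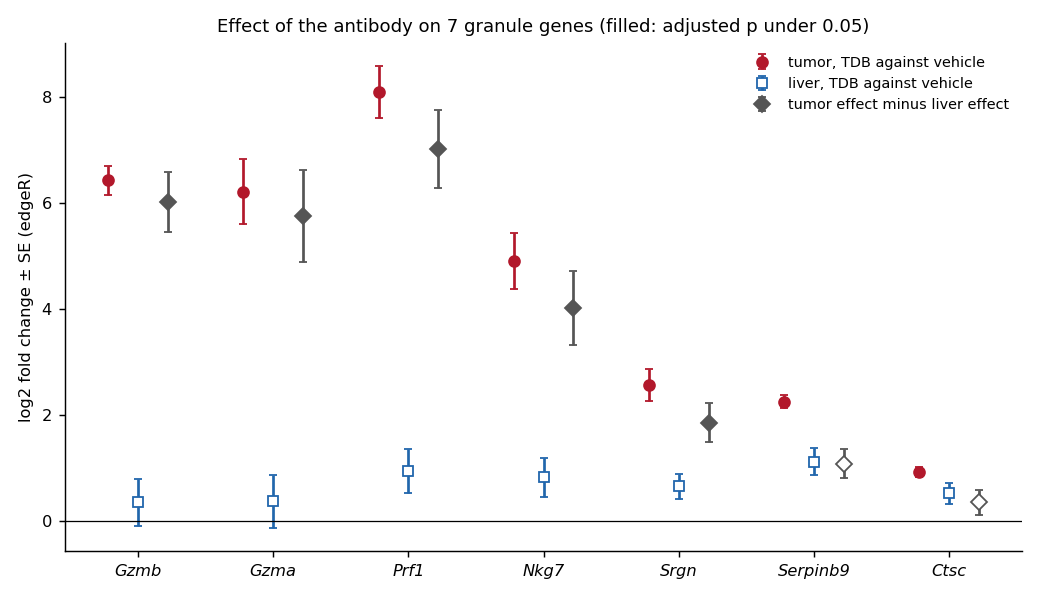
Log2 fold change ± SE of TDB against vehicle in tumor (circles) and liver (squares), and the tumor effect minus the liver effect (diamonds), from edgeR on 3 libraries per group, filled where the adjusted p is under 0.05. The tumor values run from 0.93 for Ctsc to 8.10 for Prf1, and the liver values from 0.36 for Gzmb to 1.13 for Serpinb9.

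Without the antibody the tissues already differed. Vehicle tumors had lower levels than vehicle livers of 6 of the 7 genes, in a comparison that called 75.6% of 16557 genes, 36.1% lower and 39.5% higher. The log2 difference, vehicle tumors minus vehicle livers, was -5.29 for Gzma (SE 0.71), -4.90 for Prf1 (SE 0.66), -4.24 for Nkg7 (SE 0.57), -3.32 for Gzmb (SE 0.45), -1.62 for Ctsc (SE 0.17) and -1.03 for Srgn (SE 0.27), all with an adjusted p of at most 0.0038. Serpinb9 differed by -0.23 (SE 0.19, adjusted p = 0.29). After TDB, tumors were above livers for Gzmb, by 2.69 (SE 0.35, adjusted p = 2.7e-05), Prf1, by 2.12 (SE 0.34, adjusted p = 0.00013), Serpinb9, by 0.86 (SE 0.19, adjusted p = 0.0015), and Srgn, by 0.83 (SE 0.26, adjusted p = 0.013). They were below for Ctsc, by -1.26 (SE 0.17, adjusted p = 2.8e-05). Gzma at 0.47 (SE 0.47, adjusted p = 0.38) and Nkg7 at -0.23 (SE 0.40, adjusted p = 0.62) did not pass. This comparison called 72.1% of genes, 36.6% higher in tumor and 35.5% lower, so 5 of 7 is close to that share. Without TDB tumor library 2 the Srgn difference had an adjusted p of 0.069.

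Per kilobase of exon, the scale on which genes can be set side by side, the order of mean levels in TDB tumors was Ctsc at 42.9 CPM per kb, Srgn at 31.2, Serpinb9 at 17.3, Gzmb at 16.1, Gzma at 6.57, Nkg7 at 4.17 and Prf1 at 2.39. The SD over 3 tumors was 8.01 for Srgn, 3.85 for Gzmb and 0.532 for Serpinb9, so that Serpinb9 and Gzmb did not differ beyond the spread of Gzmb. In vehicle tumors the order kept Ctsc (23.9), Srgn (5.57) and Serpinb9 (3.83) at the top, with Gzmb at 0.196, Nkg7 at 0.144, Gzma at 0.0898 and Prf1 at 0.00779 CPM per kb. Livers had the same top 3, at 103, 17.5 and 9.53 CPM per kb with TDB and 73.6, 11.4 and 4.49 with vehicle. In TDB livers the effectors followed as Nkg7 (4.89), Gzma (4.72), Gzmb (2.48) and Prf1 (0.544 CPM per kb), and Nkg7 and Gzma differed by less than their SDs of 1.83 and 1.97.

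The granzyme make-up of TDB tumors was set against that of TDB livers and of vehicle tumors. Gzmb took 69.8, 74.7 and 78.3% of all granzyme counts in TDB tumors, against 30.7, 44.9 and 46.5% in TDB livers. Gzma took 26.1, 21.0 and 13.0% in TDB tumors and 64.0, 52.4 and 48.8% in TDB livers. In vehicle tumors, on few counts, Gzmb took 31.4, 16.2 and 20.8%, all below the TDB tumors, and Gzmm took 42.9, 67.6 and 39.6%, against 1.95, 1.17 and 1.83% in TDB tumors. In vehicle livers Gzmb took 51.3, 22.5 and 60.0%, which overlapped the TDB livers. The Gzmb to Gzma count ratio was 2.67, 3.55 and 6.02 in TDB tumors, above the 0.483, 0.857 and 0.953 of TDB livers. The mean difference of this log2 ratio was 2.39 and the exact two-sided permutation p was 0.1, the smallest that 3 against 3 libraries allow. Both TDB groups were set against each other in this way after their values had been seen. Within a tissue the Gzmb to Gzma ratios of TDB and vehicle libraries overlapped, and the log2 difference was 0.46 in tumor (exact permutation p = 0.4), where vehicle tumors had few counts, and -0.19 in liver (exact permutation p = 0.8).

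**Figure D3:**
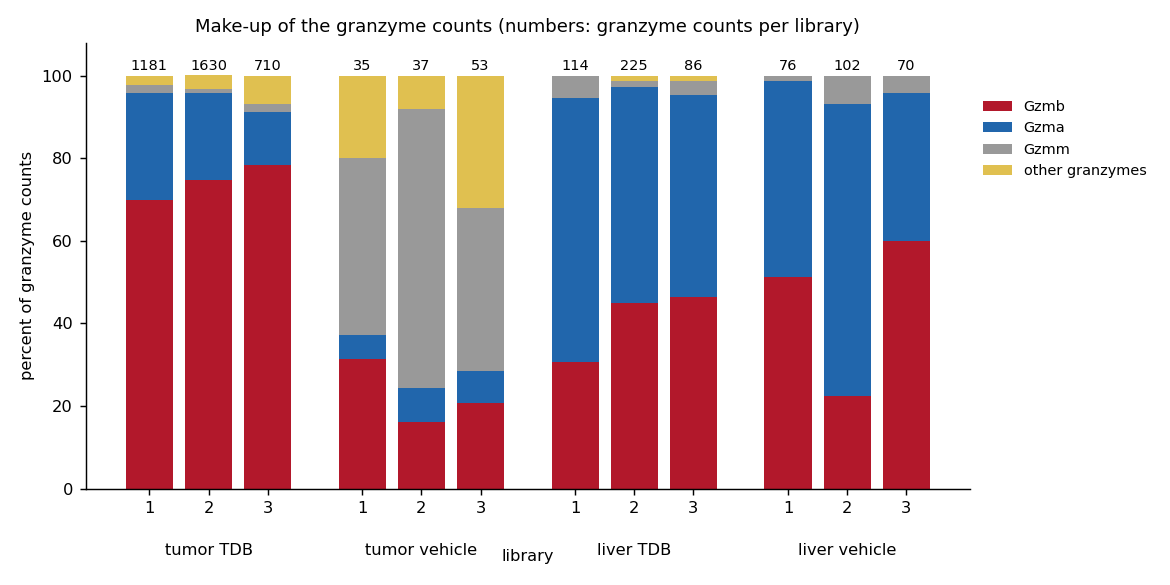
Percent of the counts of 10 granzyme genes taken by Gzmb, Gzma, Gzmm and the others in each library, with the number of granzyme counts above each bar. Gzmb is the largest part in the 3 TDB tumors at 69.8 to 78.3%, and vehicle tumors hold 35, 37 and 53 granzyme counts in all.

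Other granzymes were scarce. Gzmc, a granzyme of strongly activated killer cells, had 101 counts in TDB tumors and 10 in vehicle tumors, 9 of them in library 3, with a log2 change of 3.24 (SE 0.71, adjusted p = 0.011). It reached the count filter in no vehicle tumor and so was tested only because of its TDB tumors. Gzmm, found in NK cells, had 55 counts in TDB tumors and 61 in vehicle tumors (log2 fold change -0.20, SE 0.34, adjusted p = 0.70). Gzmf, Gzmg and Gzmn were listed at 0 in all 12 libraries. Gzmc and its neighbours Gzmd to Gzmn are close copies, so reads may be split among them.

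Granule genes were next set against the T cell marker level of each library, using the summed CPM of 14 T cell markers. That sum was 22.0 to 29 CPM in TDB tumors, 12.7 to 17.4 CPM in vehicle tumors, 56.2 to 63.4 CPM in TDB livers and 26.9 to 32.2 CPM in vehicle livers. In vehicle tumors it was mostly Thy1, a surface protein also made by fibroblasts, at 11.1 ± 2.24 CPM (SD, n = 3), while Cd3e, a chain of the T cell receptor complex, had 0 counts there. Gzmb reached 0.846, 0.965 and 0.775 CPM per CPM of T cell markers in TDB tumors, against 0.0407, 0.0917 and 0.0413 in TDB livers. On the log2 scale TDB tumors exceeded TDB livers by 4.00 for Gzmb, 3.35 for Prf1, 2.07 for Serpinb9, 2.01 for Srgn, 1.60 for Gzma and 0.99 for Nkg7, each without overlap and with an exact permutation p of 0.1, and Ctsc differed by -0.06 (exact permutation p = 0.8). These 7 ratios were added after the levels had been seen.

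The same ratio was then compared between TDB and vehicle within a tissue, where 3 against 3 libraries cannot go below an exact permutation p of 0.1. In liver the log2 ratio to T cell markers differed, TDB minus vehicle, by -0.40 for Srgn and -0.54 for Ctsc, both without overlap (exact permutation p = 0.1 each), but with Cd3e alone as the marker by -0.05 and -0.18 (exact permutation p = 0.8 and 0.7). It differed by -0.81 for Gzmb (p = 0.2 by the exact permutation test), -0.62 for Gzma (exact permutation p = 0.5), -0.31 for Nkg7 (exact permutation p = 0.7) and 0.07 for Serpinb9 (exact permutation p = 0.6). Serpinb9 had 0.521, 0.534 and 0.586 CPM per T cell marker CPM in TDB livers and 0.506, 0.599 and 0.464 in vehicle livers, overlapping ranges. Within tumor the ratio depended on the markers used. With all 14 the log2 difference, TDB minus vehicle, was 1.75 for Srgn, 1.43 for Serpinb9 and 0.08 for Ctsc, but the vehicle sum was mostly Thy1. Without Thy1 and Cd4 the marker sum was 12.5 to 21.8 CPM in TDB tumors and 1.95 to 4.21 CPM in vehicle tumors, and the differences were -0.08 for Srgn (exact permutation p = 0.9), -0.40 for Serpinb9 (exact permutation p = 0.5) and -1.75 for Ctsc (exact permutation p = 0.1). In vehicle tumors 68, 59 and 31 of the 137, 93 and 66 counts in that smaller sum were Cd247, a receptor chain, so no direction is given for these ratios within tumor. The smaller sum was chosen after the values had been seen. The 4 effectors had too few counts in vehicle tumors for this ratio.

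The ratio of Serpinb9 to Gzmb transcripts in bulk tissue was lower in TDB tumors than in vehicle tumors. Whether both transcripts came from the same cells was not tested. Serpinb9 had 2.39, 2.23 and 3.56 counts per count of Gzmb in TDB tumors, against 40.4, 54.7 and 44.3 in vehicle tumors, a log2 difference of -4.11 (exact permutation p = 0.1, the smallest possible). The vehicle tumor ratios rest on 11, 6 and 11 counts of Gzmb. This difference restates the unequal rises of Serpinb9 and Gzmb given above. In livers the ratio was 12.6, 5.8 and 14 with TDB and 4.49, 9.55 and 3.82 with vehicle, overlapping, with a log2 difference of 0.88 (exact permutation p = 0.2). TDB tumors were below TDB livers by -1.92 on the log2 scale (exact permutation p = 0.1), a comparison added after the values had been seen.

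**Figure D4:**
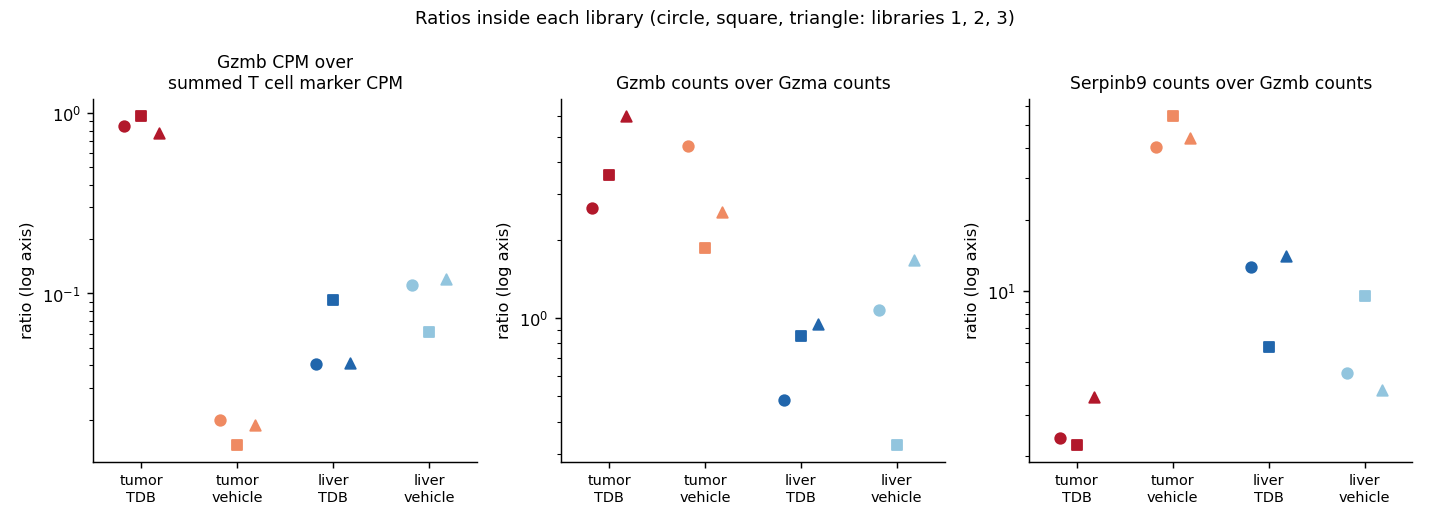
Gzmb CPM over summed T cell marker CPM, Gzmb counts over Gzma counts, and Serpinb9 counts over Gzmb counts, in each library (log axes, 0.5 added to counts in the count ratios). TDB tumors lie at 0.775 to 0.965 Gzmb per T cell marker CPM, above every liver library, and at 2.23 to 3.56 Serpinb9 per Gzmb, below every other library. Vehicle tumors had 11, 6 and 11 counts of Gzmb, and their T cell marker sum was mostly Thy1.

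Markers of the lymphocytes that make these genes moved with them in tumor. Of 14 T cell markers, 11 were called higher and 1 lower in TDB tumors, where 15.8% of all genes tested were called higher and 13.1% lower. However, 10 of the 11 reached the count filter in no vehicle tumor and so were tested only because of their TDB tumors. The other one was Lck, a kinase of the T cell receptor, with a log2 change of 2.32 (adjusted p = 0.0011). Cd3e was at least 49.8-fold higher against a floor of 3 counts over the vehicle group. Cd8a, the killer T cell coreceptor, had a log2 fold change of 5.19 (adjusted p = 0.00023) and Lat, an adaptor of the T cell receptor, 4.91 (adjusted p = 4.4e-05). Cd3d, a further receptor chain, had 3 counts in vehicle tumors and a depth-scaled ratio of 31.7 (95% exact interval 10.6 to 156). The marker called lower was Thy1, at -0.61 (SE 0.19, adjusted p = 0.041, and 0.054 to 0.11 without any 1 of 5 libraries). In TDB livers 1 of the 14 was called, Cd8a, with 3.46 to 5.83 CPM in TDB livers against 0.386 to 0.867 CPM in vehicle livers. The change was 2.98 (SE 0.44, adjusted p = 0.043), and the call was lost without TDB liver library 2 or any vehicle liver (adjusted p 0.14 to 0.27). Of all genes tested in liver, 0.513% were called higher. By edgeR 10 of the 14 markers had an unadjusted p under 0.05 in liver, as did 1105 of all 13657 genes tested. The median log2 fold change of the 14 in liver was 0.98, against 0.04 for all genes.

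NK cell markers were next examined. Of the 11 listed, 7 were tested in tumor, and each of them reached the count filter only in TDB tumors, so that the number called is no measure of the list. The sum of the 11 was 13.6 to 19.0 CPM in TDB tumors against 0.152 to 0.415 CPM in vehicle tumors. Klrk1, the activating receptor NKG2D, had a log2 change of 6.55 (SE 0.48, adjusted p = 4.3e-05). Klrb1b, an inhibitory lectin receptor, had a depth-scaled ratio of 106 (95% exact interval 36 to 516) and Klri2, a lectin receptor, 46.3 (7.96 to 1860). In livers the sum was 12 to 21.3 CPM with TDB and 4.63 to 11.1 CPM with vehicle, and edgeR called 0 of the 3 tested, with 1 at an unadjusted p under 0.05. Activated T cells also express Klrk1, and the shares of T cells and NK cells in the granule values were not tested.

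Of 14 transcription factors of cytotoxic lymphocytes, 13 were tested in tumor, and 6 of these, Tbx21, Eomes, Irf4, Stat4, Batf and Hopx, only because of their TDB tumors. Of the other 7, 4 were called higher, Runx3, Zeb2, Prdm1 and Id2, the last losing its call under 4 of 13 alternatives. Among all tested genes that reached the filter in at least 1 vehicle tumor, 14.4% were called higher. In liver edgeR called 0 of the 10 tested, with 0 at an unadjusted p under 0.05, and Eomes, Runx3, Stat4 and Zfp683 were not tested there, so the counts of the tissues cover different genes. Tbx21, or T-bet, which drives granule genes, had 199 counts in TDB tumors and 1 in vehicle tumors, a depth-scaled ratio of 174 (95% exact interval 30.8 to 6900). Eomes, its relative, had a ratio of 126 (22.2 to 5000). Irf4, a factor of activated T cells, had a log2 fold change of 5.97 (adjusted p = 2.7e-05) and Stat4, which signals for IL-12, 3.45 (adjusted p = 0.0019).

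Of 16 cytokines and receptors that induce granule genes, 13 were tested in tumor, and 4 of these, Ifng, Il2ra, Il2rb and Il12rb2, only because of their TDB tumors. Of the other 9, 6 were called higher, against 14.4% of all tested genes that reached the filter in at least 1 vehicle tumor. Ifng, interferon gamma, was at least 158-fold higher against the floor, since vehicle tumors had 0 counts. Il2ra, the inducible IL-2 receptor chain, had a depth-scaled ratio of 338 (95% exact interval 93.2 to 2790). Il2rb, the signalling chain shared by IL-2 and IL-15, had a log2 fold change of 5.46 (adjusted p = 1.6e-06) and Il12rb1, an IL-12 receptor chain, 5.14 (adjusted p = 4.4e-05). In liver 3 of the 9 tested had an unadjusted p under 0.05 in edgeR. Of these, 1 was called, Il2rg, the common gamma chain, at 1.96 (SE 0.29, adjusted p = 0.042). That call was lost without TDB liver library 2 or any vehicle liver (adjusted p 0.19 to 0.30). Il15ra, the most abundant of the list, had 0.34 (adjusted p = 0.083) in tumor.

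Other genes of the granule were then examined. Of 11 other granule proteins, 5 were called higher in tumor, of which Crtam and Fasl reached the count filter in no vehicle tumor. Cst7 had 23 counts over the vehicle tumors, too few for all 3 to reach it. These genes were tested only because of their TDB tumors. Crtam, a surface receptor of activated cytotoxic cells, had a ratio of 39.0 (95% exact interval 13.1 to 192). Cst7, cystatin F, an inhibitor of cathepsin C, had a log2 fold change of 4.23 (adjusted p = 0.00032). Fasl, the death ligand stored in granules, had 3.45 (adjusted p = 0.0016) and Ctsw, a cathepsin of killer cells, 2.20 (adjusted p = 0.00085). Of 15 genes of granule transport and exocytosis, 5 were called higher, led by Stx11, a syntaxin of granule fusion (1.88, adjusted p = 0.0024), Coro1a, an actin regulator (1.61, adjusted p = 0.0021), and Unc13d, which primes granules (1.34, adjusted p = 0.00068). Of 10 genes of sorting and proteoglycan synthesis, 1 was called higher, Gnptab, and 2 lower, Chsy1 and Xylt2, with log2 fold changes of 0.28, -0.32 and -0.25. Over all genes tested in tumor 28.8% were called, 15.8% higher and 13.1% lower, and the last list is close to that share. Of 13 alternatives the call was lost in 7 for Gnptab, 3 for Chsy1 and 8 for Xylt2, and that on Unc13d in the single fit over the 12 libraries (adjusted p = 0.17). In liver none of these 3 lists had a called gene in edgeR, with 1 of 8, 2 of 14 and 0 of 8 at an unadjusted p under 0.05.

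Relatives of the inhibitor included the largest liver change of any gene named here. Serpina3g, a serpin of immune cells, had 79.9 to 111 CPM in TDB tumors against 0.334 to 2.19 CPM in vehicle tumors (log2 fold change 6.64, SE 0.54, adjusted p = 0.00069). In livers it had 95.4 to 128 CPM with TDB against 5.76 to 11.1 CPM with vehicle (3.89, SE 0.32, adjusted p = 0.0024). It belongs to a cluster of near-identical copies, so its counts are uncertain. Serpinb1a, an inhibitor of neutrophil proteases, had 2.43 (adjusted p = 0.0051) in tumor and -1.25 (adjusted p = 0.52) in liver.

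Targets of granzyme B and genes that act in cell death were described as a list of 9. In tumor 3 were called higher and 1 lower, with a median log2 fold change of -0.05, against -0.02 for all genes. Of all genes tested in tumor, 15.8% were called higher and 13.1% lower. On the log2 scale Bak1, a mitochondrial pore protein, rose by 1.31 (SE 0.08, adjusted p = 6.5e-06), Bid, a substrate of granzyme B, by 0.65 (adjusted p = 0.0032), and Apaf1, the scaffold of the apoptosome, by 0.56 (adjusted p = 0.0026). Lmnb1, a nuclear lamin, had -0.56 (adjusted p = 0.0024). In a single fit over the 12 libraries the calls on Apaf1 (adjusted p = 0.55) and Lmnb1 (0.17) were lost. In liver edgeR called 0 of 9, with 2 at an unadjusted p under 0.05, and Bak1 there had 1.10 (SE 0.22, adjusted p = 0.11). Erbb2, the mouse HER2 gene, had -0.58 (SE 0.08, adjusted p = 0.00062, and 0.10 in that single fit) in tumor, and whether reads of the HER2 transgene were counted there was not tested.

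**Figure D5:**
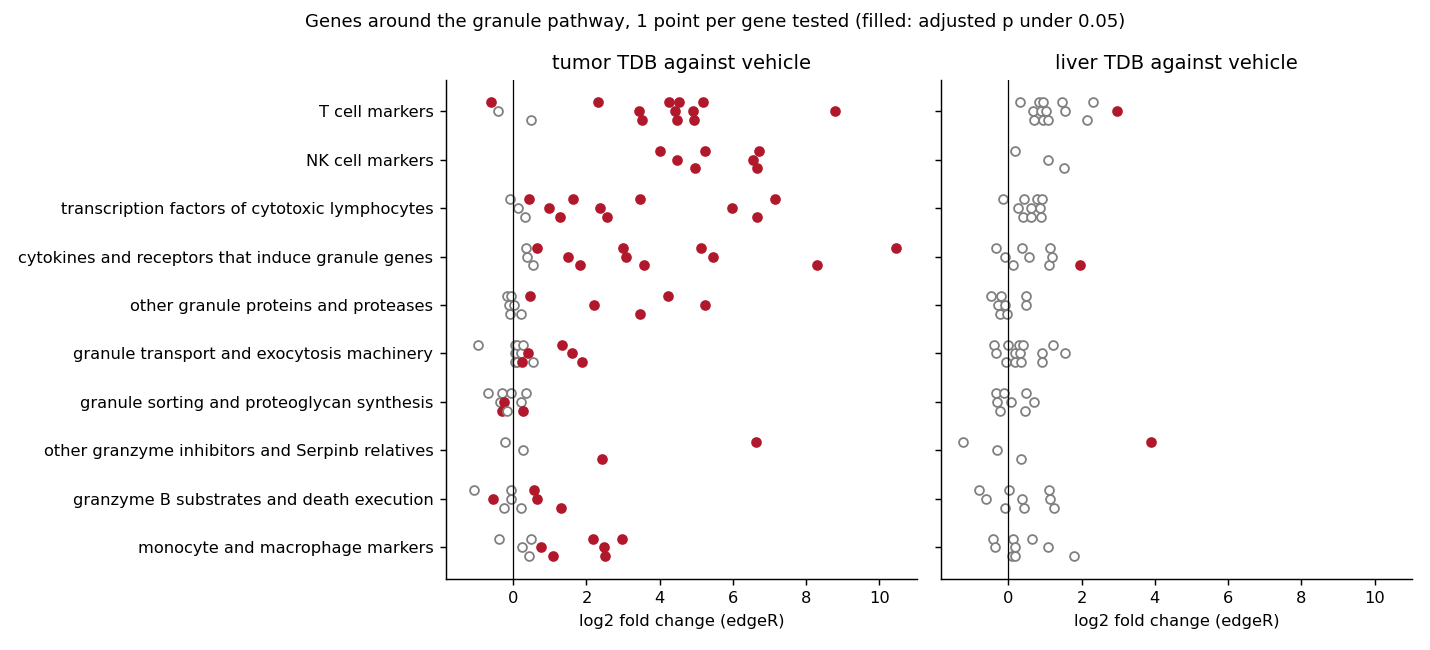
Log2 fold change of TDB against vehicle for each tested gene of 10 lists around the granule pathway, in tumor (left) and liver (right), filled where edgeR's adjusted p is under 0.05. Genes tested only because of their TDB tumors, among them all 7 NK cell markers shown, lie to the right in the tumor panel, and in liver 3 genes are filled, Cd8a at 2.98, Il2rg at 1.96 and Serpina3g at 3.89.

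The genes whose levels ran most like a member's were found by the root mean square (RMS) difference of gene-centred log2(CPM + 1) over the 12 libraries. For Gzmb they were Ccl5 (RMS difference 0.41), Ly6i (0.53), Prf1 (0.55), Il2rb (0.58) and H2-Q7 (0.58). Ccl5, a chemokine of activated T cells, averaged 17.3 CPM in TDB tumors, 0.432 in vehicle tumors, 3.03 in TDB livers and 3.63 in vehicle livers. For Prf1 they were H2-Q4 (0.29), Cst7 (0.32), Il10ra (0.33), Slfn2 (0.34) and Sp110 (0.34), and for Serpinb9 Naaa (0.19), Upp1 (0.23), Parp10 (0.23), Ifi207 (0.24) and Il10ra (0.25). Adding 1 CPM shrinks the changes of genes with low levels, so a small RMS difference does not mean like fold changes. Prf1 averaged 6.18 CPM in TDB tumors and 0.0201 in vehicle tumors, and H2-Q4 averaged 276 and 35.0. Prf1 is in the list of Gzmb, and Serpinb9 shares Il10ra, the IL-10 receptor, with Prf1. The H2-Q, Ly6 and Ifi200 genes belong to families of close copies, so their counts are uncertain. The 12 points share the same libraries and the same 4 groups, and the likeness is a description of these libraries.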

How the data were processed

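Bulk RNA-seq counts of 12 libraries, 3 per group, were used as the authors deposited them. The deposited count table holds whole-number read counts per Ensembl gene, aligned with GSNAP to GRCm38 per the submitters' processing notes, with no counting tool or strand setting given in the sources used here. A deposited FPKM table was not used. Gene symbols came from GENCODE M21, with 52489 of 52636 identifiers matched. The members, gene lists and tests were chosen with earlier results of these data known.

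Genes were kept by filterByExpr (minimum count 10, minimum total 15), scaled by TMM and tested with robust quasi-likelihood fits in edgeR 4.0.16 (R 4.3.3), separately for tumor and liver, and over all 12 libraries for comparisons across tissues. CPM uses TMM over the 12 libraries, so CPM ratios can differ slightly from fitted fold changes. Alternatives used DESeq2 1.42.0 and limma 3.58.1. Within-library ratios had exact permutation tests (scipy 1.17.1). Only the edgeR fits of TDB against vehicle within tumor and within liver were tested on simulated data. The fits across tissues and the alternatives were not. No 2 libraries of a group were duplicates. Named genes were, per list, up to 4 called genes with the largest fold change and the gene of highest mean CPM, and the 5 nearest patterns of Gzmb, Prf1 and Serpinb9. The most abundant genes of lists were left unnamed in liver. The list of granzyme B targets is given without 2 of its genes, which are not reported here. Lck, Runx3, Zeb2, Prdm1, Batf, Hopx, Il12rb2 and Zfp683 were named after their values had been seen. Intervals cover counting error only.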

Additional observations from a re-analysis of the deposited data

Results flagged for a closer look

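For 5 genes the antibody's effect in tumor differed from its effect in liver by the test of the difference in edgeR over the 12 libraries, 3 per group. The log2 difference, tumor effect minus liver effect, was 7.02 for Prf1, 6.02 for Gzmb, 5.76 for Gzma, 4.02 for Nkg7 and 1.86 for Srgn. For Prf1 the vehicle tumors had 2 counts in all, for Gzma 9, for Nkg7 13 and for Gzmb 28. T cell markers moved beside these genes. Without Thy1 and Cd4 the other 12 summed to 12.5 to 21.8 CPM in TDB tumors against 1.95 to 4.21 CPM in vehicle tumors, and to 47.0 to 52.2 CPM in TDB livers against 20.5 to 25.0 CPM in vehicle livers. The tumor effect on the markers themselves also exceeded the liver effect by the same test for 5 of 14, by 7.60 for Cd3e, 4.13 for Lat and 4.01 for Cd3d on the log2 scale. That test called 1.83% of all genes in this direction. Cd3e had 0 counts in vehicle tumors, so its fitted value is no bound. The part of T cell number in the differences was not tested.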

How the results depend on the processing

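In tumor all 7 granule genes were called higher under each of the 13 alternatives. In liver the count of granule genes called was 0, and 1 (Serpinb9) with DESeq2, with the replicate block and in 1 fit over the 12 libraries; leaving out any 1 library kept it at 0. The tumor-minus-liver difference called 4 to 6 of the 7 over 18 alternatives. The number of all genes called in liver was 73, and 145 without a filter on low counts, 352 with DESeq2, 350 with the replicate block, 323 in 1 fit over the 12 libraries, and 14 to 163 with 1 library left out. In tumor it was 4456, 1695 in 1 fit over the 12 libraries and 2942 to 4860 with 1 library left out. For the tumor-minus-liver difference it was 412, 892 with DESeq2, 258 with the replicate block and 241 to 696 with 1 library left out; the cause was not tested. The replicate block fitted same-numbered libraries as a set, across treatments within a tissue or across tissues within a treatment. As a check, deviations from the group mean were correlated between same-numbered libraries. For libraries 1, 2 and 3, r was -0.06, 0.3 and 0.46 between TDB and vehicle livers. Between TDB and vehicle tumors it was 0.06, 0.01 and 0.26. Between tumor and liver it was 0.02, 0.01 and 0.1 with TDB and -0.02, -0.04 and 0.08 with vehicle. That check cannot tell whether same-numbered tumor and liver libraries came from the same mouse. No other call on a granule gene changed under the block.

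Some uncalled values changed sign. Over single left-out libraries, Gzmb in liver ranged from -0.21 (without TDB library 2) to 0.60, Nkg7 in TDB tumors against TDB livers from -0.49 to 0.02 (without TDB tumor library 3), and in tumor Pecam1 from -0.03 (without vehicle library 2) to 0.33 and Tcf4 from -0.10 to 0.06 (without vehicle library 3). Vamp8 in tumor was -0.03 with upper quartile scaling and -0.04 in 1 fit over the 12 libraries. The log2 ratio to T cell markers in liver turned to 0.05 for Nkg7 with Cd3e alone, and ranged over single left-out libraries from -0.57 to 0.09 for Nkg7 and from -0.01 to 0.17 for Serpinb9. The liver ratio of Gzmb to Gzma ranged from -0.87 to 0.31. For Ctsc the tumor ratio was -0.59 with T cell and NK cell markers and ranged from -0.09 to 0.17, and the ratio of TDB tumors to TDB livers was 0.16 with Cd3e alone, 0.28 without Thy1 and Cd4 and ranged from -0.23 to 0.03. Without Thy1 and Cd4 the ratio turned to -0.05 for Serpinb9 in liver and, in tumor, to -0.08 for Srgn, -0.40 for Serpinb9 and -1.75 for Ctsc, where the vehicle sum with Thy1 is mostly Thy1. Cd3e alone could not be used within tumor, where vehicle libraries had 0 counts. Of 50 other named genes called in tumor, 36 were called under every alternative. Depth limits the effector genes in vehicle tumors, where Gzma, Prf1 and Nkg7 had at most 13 counts in a group.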

Other observations

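Markers of other cell types were counted for the same libraries. Of the neutrophil markers, 3 of 4 tested were called higher in tumor, with log2 fold changes of 2.95 for S100a8, 2.49 for Cxcr2 and 2.27 for Csf3r, and edgeR called 0 of 5 in liver, with 0 at an unadjusted p under 0.05. Over all genes tested 15.8% were called higher in tumor and 0.513% in liver. The call on Cxcr2 was lost under 6 of 13 alternatives. Cxcr2 had 21 counts over the vehicle tumors, too few for all 3 to reach the count filter. Plasmacytoid dendritic cells are a further source of granzyme B, and of their markers Siglech was called higher in tumor at 4.89 (adjusted p = 9.2e-05) and Ccr9 had a depth-scaled ratio of 41.9 (95% exact interval 11.3 to 351), while Tcf4, the most abundant, had -0.04. Hdc, which makes histamine, was called higher at 4.22 (adjusted p = 1.2e-05), while the mast cell protease genes Cpa3, Tpsab1, Tpsb2 and Mcpt4 had at most 1 count in either tumor group and Cma1 had 4 counts in TDB tumors and 10 in vehicle tumors. Siglech, Ccr9 and Hdc reached the count filter in no vehicle tumor and so were tested only because of their TDB tumors. Kit averaged 519 CPM in TDB tumors and 614 CPM in vehicle tumors. Cd22 was the only B cell marker tested in tumor (1.47, adjusted p = 0.036, lost under 5 of 13 alternatives). Of the endothelial markers Kdr (-0.94) and Emcn (-0.92) were called lower in tumor, and of the epithelial markers Krt8 (-0.27) was, besides Erbb2. The call on Krt8 was lost under 7 of 13 alternatives, and those on Kdr (adjusted p = 0.13) and Erbb2 (0.10) in the single fit over the 12 libraries. The part of these cells in the granule gene values was not tested.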
